A study of Mus musculus with 6 samples.

Results

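The acute phase protein genes examined here were 10 genes classed as positive, whose products the liver secretes in greater amounts during inflammation: Hp, Lrg1, Crp, Saa1, Saa2, Saa3, Orm1, Orm2, Itih4 and Lcn2. They were picked by name from the 41388 Ensembl genes of the expression table, by matching identifiers to GENCODE M21 symbols, to set those that differed between the groups beside those that did not. The choice was made with the difference between these same libraries known, so their levels and differences are given as a description. Whether one of them passed the threshold in the fit across all genes is stated only to describe it, and is no independent test. RNA was sequenced from primary murine hepatocytes, which make most plasma proteins, isolated from WT C57BL/6J mice and cultured in DMEM with 10% FBS. One group was treated with adenovirus encoding β-gal, a bacterial enzyme that serves as the control protein (replicates 1, 2 and 3), and the other with adenovirus encoding Aloxe3, which codes for the lipoxygenase eLOX3 (replicates 7, 8 and 9). Both groups received about 1000000 viral particles per 1000000 cells for 24 h before RNA collection, so all 6 libraries came from cells that carried an adenovirus. The labels do not say that replicates came from separate mice or cultures, so the errors and p-values measure only the spread between these libraries, which may be technical.

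The acute phase response is the change in liver protein secretion that follows infection or injury. Interleukin-6 acts on hepatocytes through the receptor subunit gp130 and the transcription factor STAT3, and interleukin-1 acts through NF-κB, with C/EBPβ and C/EBPδ as further activators. The fibrinogen genes are classed with the response to interleukin-6 alone, whereas the serum amyloid A and orosomucoid genes respond to interleukin-1 and interleukin-6 together. In mice, serum amyloid A proteins rise strongly while C-reactive protein stays low.

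Promoter sequences of RefSeq (GRCm38.p6, 250 bases before to 50 after the start site) matched 8 of the 10 genes, all but Hp and Orm1. They are shown for Lrg1 and Crp, which were higher with Aloxe3, and for 4 serum amyloid A and orosomucoid genes that overlapped between the groups, so that the letters can be read beside the values. Each runs 5′ to 3′ on the strand of its gene, up to the first base that GENCODE M21 places in an exon: Lrg1 at chr17:56122002-56122196 (minus strand), Crp at chr1:172697806-172698054 (plus strand), Saa1 at chr7:46742981-46743230 (minus strand), Saa2 at chr7:46751583-46751789 (plus strand), Saa3 at chr7:46715701-46715926 (minus strand) and Orm2 at chr4:63362199-63362448 (plus strand). Capitals mark matches, on either strand, to 4 motifs: TTGCNNAA (C/EBP), CTGGGAA (the interleukin-6 response element), TTCNNNGAA (STAT) and a narrow NF-κB pattern. That pattern is 10 bases long, and other forms of the NF-κB consensus were not searched.
Lrg1: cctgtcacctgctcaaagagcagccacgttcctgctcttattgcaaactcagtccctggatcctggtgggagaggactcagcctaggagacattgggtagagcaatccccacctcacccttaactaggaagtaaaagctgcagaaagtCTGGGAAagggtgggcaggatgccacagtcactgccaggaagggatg
Crp: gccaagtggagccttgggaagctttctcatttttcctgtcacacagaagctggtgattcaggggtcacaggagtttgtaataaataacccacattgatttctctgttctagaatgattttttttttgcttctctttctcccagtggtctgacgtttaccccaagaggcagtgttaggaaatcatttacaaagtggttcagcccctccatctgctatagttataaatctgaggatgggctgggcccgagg
Saa1: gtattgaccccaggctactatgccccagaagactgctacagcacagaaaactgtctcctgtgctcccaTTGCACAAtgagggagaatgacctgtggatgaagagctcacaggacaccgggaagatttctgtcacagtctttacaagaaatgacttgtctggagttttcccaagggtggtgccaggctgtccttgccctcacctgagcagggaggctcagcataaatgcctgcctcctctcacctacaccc
Saa2: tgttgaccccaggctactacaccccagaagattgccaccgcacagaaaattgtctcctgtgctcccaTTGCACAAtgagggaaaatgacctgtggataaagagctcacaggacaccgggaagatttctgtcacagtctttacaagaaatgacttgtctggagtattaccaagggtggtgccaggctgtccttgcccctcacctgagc
Saa3: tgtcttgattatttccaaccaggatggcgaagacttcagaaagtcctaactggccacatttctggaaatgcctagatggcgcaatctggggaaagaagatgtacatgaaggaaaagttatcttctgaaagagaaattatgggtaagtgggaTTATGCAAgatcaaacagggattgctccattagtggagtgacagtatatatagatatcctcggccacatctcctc
Orm2: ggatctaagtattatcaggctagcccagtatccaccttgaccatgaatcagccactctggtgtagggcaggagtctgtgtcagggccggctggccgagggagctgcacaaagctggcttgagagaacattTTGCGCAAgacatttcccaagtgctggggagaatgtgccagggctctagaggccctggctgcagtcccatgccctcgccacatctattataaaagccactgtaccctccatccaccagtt

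The C/EBP letters were found in 5 of the 8 promoters, those of Saa1, Saa2, Saa3, Orm2 and Lcn2, and in 10.8% of 32851 promoters of the same length. None of these 5 genes passed the threshold between the groups. In Saa1 and Saa2 the same letters, TTGCACAA, start 182 and 183 bases before the start site, in Saa3 99 and in Orm2 120 bases before it. Lrg1 held the only CTGGGAA, 102 bases before its start (11.1% of all promoters), and Itih4 the only TTCNNNGAA, 51 bases before its start (8.3%). The narrow NF-κB pattern was in none of the 8 (1.63% of all promoters). Whether they hold other forms of the NF-κB consensus was not tested. Crp held none of the 4 motifs in this window. No promoter of the 8 held 2 matches, so none overlapped. Among the fibrinogen genes, which rose with Aloxe3, CTGGGAA was found 91 bases before the start of Fgb and 13 before that of Fgg, and TTCNNNGAA in Fga and Fgb. CTGGGAA also occurred in genes that did not pass. Apcs held it 129 and 52 bases before its start, with TTCNNNGAA 244 bases before. Orm3 held CTGGGAA at position 10 after its start. The C/EBP letters were in this window of Fga and Fgb as well, 135 and 80 bases before the start, so they were present both in genes that rose and in genes that did not pass. That of Saa4 held them at 2 places. A match is a description of the letters and not a site of binding.

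The Saa1 and Saa2 coding sequences were identical at 95.1% of 369 bases, and those of Orm1 and Orm2 at 89.9% of 624 bases (GENCODE M21 transcripts). The 60 coding bases with the most differences are given for each pair, with capitals at the bases that differ, 7 between Saa1 and Saa2 and 17 between Orm1 and Orm2, to show what a read of 50 bases has to tell the copies apart. They are coding bases 90 to 149 of Saa1 and Saa2, which span an intron, and 138 to 197 of Orm1 and Orm2, at chr4:63345089-63345148 and chr4:63362964-63363023 (both plus strand).
Saa1: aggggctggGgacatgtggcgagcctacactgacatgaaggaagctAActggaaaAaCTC
Saa2: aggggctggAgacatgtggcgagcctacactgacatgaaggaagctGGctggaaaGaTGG
Orm1: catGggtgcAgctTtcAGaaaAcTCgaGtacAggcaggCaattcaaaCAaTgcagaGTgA
Orm2: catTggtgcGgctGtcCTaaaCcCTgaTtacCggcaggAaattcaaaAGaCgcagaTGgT

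Of the 50-base windows of the transcript, 14.8% for Saa1, 13.3% for Saa2, 1.78% for Saa3, 20.4% for Orm1 and 22.7% for Orm2 also occurred in another gene. The share was 1.15% for Crp and 0 for Hp, Lrg1, Itih4 and Lcn2. As the authors counted uniquely aligned reads, the levels of Saa1, Saa2, Orm1 and Orm2 are in this respect less certain than those of the other genes.

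Values are RPKM, reads per kilobase of gene per 1000000 reads. Library sizes derived from the steps of the RPKM values ran from 29575553 to 32431318 reads for β-gal and from 25521908 to 30399198 for Aloxe3. Aloxe3 itself, the check of the labels, was at 2.04, 2.06 and 1.74 RPKM in the β-gal libraries and at 42.3, 45.8 and 56.3 in the Aloxe3 libraries, a log2 fold change of 4.05 ± 0.10 (SE; limma, adjusted p = 4.74e-06). As to the cell type, 11 of 12 hepatocyte markers had a mean of at least 0.5 RPKM, and the list summed to 5329 to 5358 RPKM with β-gal and 5137 to 5312 with Aloxe3. Alb (albumin) lay between 4362 and 4552 RPKM in the 6 libraries, Apob between 232 and 255 and the transcription factor Hnf4a between 25.4 and 29.3. Cps1 (0.91 to 1.64 RPKM), Cyp2e1 (2.03 to 2.86), Asgr1 (1.46 to 2.27) and Tat (0.19 to 0.66) were low. Of these, Cps1 and Tat were higher in every Aloxe3 library than in any β-gal library. Cps1 was at 0.91 to 1.05 against 1.29 to 1.64 RPKM and did not pass the test (limma, adjusted p = 0.161). Tat was at 0.19 to 0.35 against 0.44 to 0.66 and was under the filter. Trf was also higher in every Aloxe3 library (means 100 and 110 RPKM). Ttr (124 and 100), Apoa1 (243 and 227) and Serpina1a (52.2 and 48.3) were lower in every Aloxe3 library than in any β-gal library. Of these, only Ttr passed the test. Of 5 cholangiocyte markers 3 reached a mean of 0.5 RPKM, Spp1 (osteopontin, 1431 to 1638 RPKM), Krt19 (32.9 to 51.0) and Sox9 (38.3 to 49.3), while Krt7 and Epcam stayed between 0.09 and 0.46. None of 9 neutrophil markers and none of 8 lymphocyte markers reached a mean of 0.5 RPKM, whereas 9 of 12 Kupffer cell and macrophage markers did. Of the latter, Cd68 lay between 147 and 149 RPKM with β-gal and lower, between 129 and 141, with Aloxe3 (adjusted p = 0.262), Lyz2 between 6.65 and 9.50 and the other 7 at group means of at most 2.06. The remaining 3, Clec4f, Vsig4 and Timd4, had group means of at most 0.0705 RPKM. The part of other cell types in the levels of the acute phase genes was not tested, and in RNA from whole cultures fewer cells of a type cannot be told apart from less RNA per cell.

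All 10 genes were measured in every library and passed the filter of a mean of at least 0.5 RPKM, which left 12693 genes for the fit. In β-gal libraries Hp was the most abundant, at 825 ± 26 RPKM (SD, n = 3), and stood at rank 39 of the 12693 genes by β-gal mean. Saa1 followed at 336 ± 36, then Orm1 at 304 ± 31, Lcn2 at 270 ± 37 and Saa3 at 223 ± 52 RPKM. Neighbours among these 4 overlapped in their β-gal values, so their order within the group is not settled by 3 libraries. Saa2 at 125 ± 6.9, Orm2 at 77.1 ± 6.0, Itih4 at 63.8 ± 1.3, Lrg1 at 27.3 ± 0.58 and Crp at 3.05 ± 0.079 RPKM followed without overlap, and Crp stood at rank 8643 by β-gal mean. The means in Aloxe3 libraries had the same order, in which only Saa1 and Orm1 overlapped. Levels between genes depend on the exon length that the authors divided by. For Lcn2 the length that gave whole reads was 2302 bases, while its transcript in GENCODE M21 has 915 bases, so its level per length depends on that choice.

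In Aloxe3 libraries Hp, Lrg1 and Crp were higher than in every β-gal library, whereas Saa1, Saa2, Saa3, Orm1, Orm2 and Lcn2 overlapped between the groups. Of the 10 genes, 3 passed an adjusted p of 0.05 in the limma fit across all genes, each higher with Aloxe3, where 0.355% of all tested genes passed in that direction and 0.394% in either. This count is what the genes were chosen on, and nothing is read from it. The groups did not overlap for 4 of the 10 genes, all higher with Aloxe3, against 11.2% of all genes higher, 8.71% lower and 19.9% in either direction. The median log2 fold change was 0.06 over the 10 genes, 0.58 over the 3 and 0.05 over the other 7, and 0.00 over all genes tested.

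**Figure D1:**
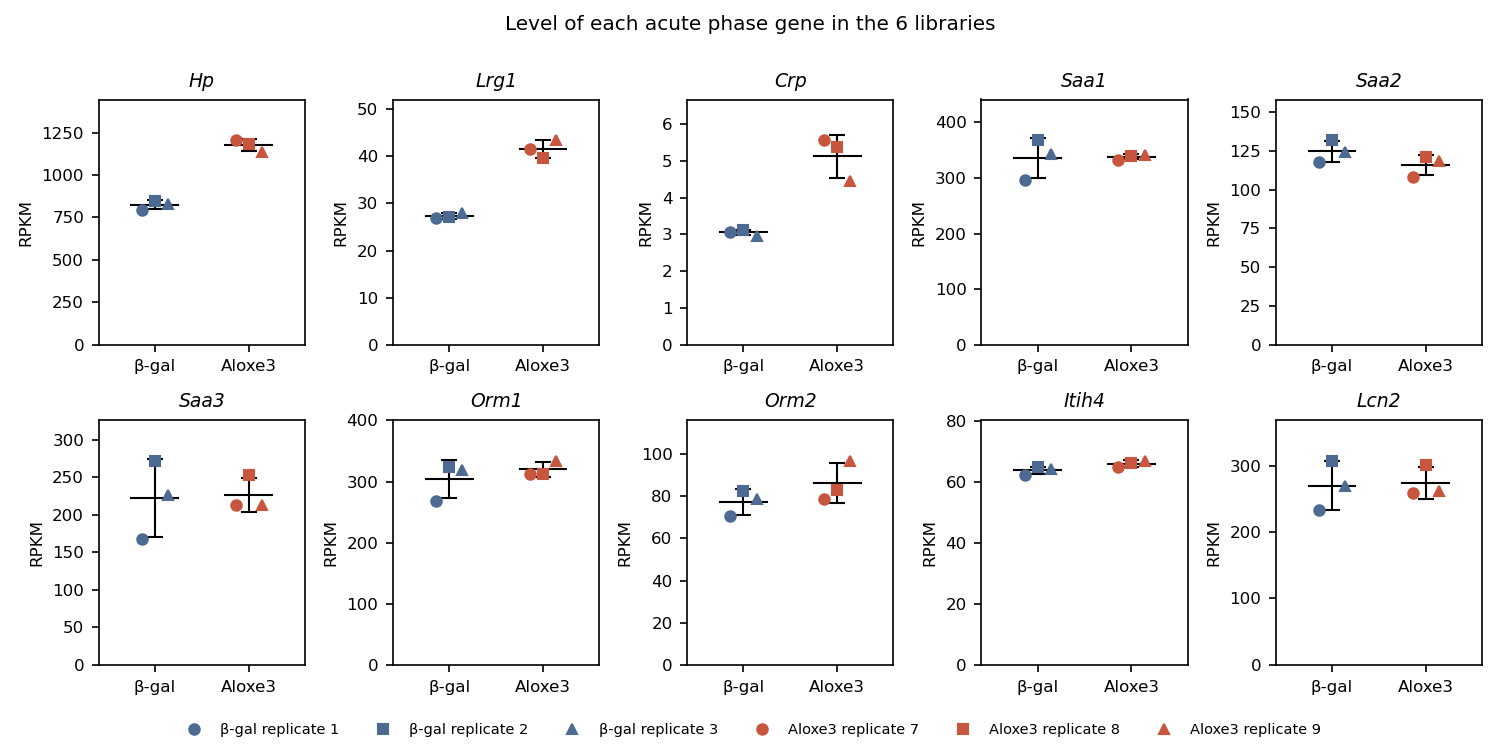
Level of each of the 10 genes in RPKM (linear axes from 0) in the 3 β-gal and 3 Aloxe3 libraries, with the mean (wide bar) and SD (whiskers). Hp, Lrg1 and Crp lie above all β-gal libraries in all Aloxe3 libraries, and Saa1, Saa2, Saa3, Orm1, Orm2 and Lcn2 overlap.

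Hp encodes haptoglobin, which binds hemoglobin freed from red cells. The gene is on chromosome 8, minus strand, at 109575128 to 109579172 (GENCODE M21, GRCm38). Its level was 797, 847 and 831 RPKM in the β-gal libraries and 1205, 1185 and 1136 RPKM in the Aloxe3 libraries. The lowest Aloxe3 library was above the highest β-gal library by more than the range within either group. The means differed 1.42-fold, and the log2 fold change was 0.51 ± 0.045 (SE; 95% interval 0.41 to 0.61; fold changes here are on the log2(RPKM + 1) scale). Each library held between 33001 and 48361 reads of Hp. The call of Hp held in 10 of 13 alternative analyses and was lost without a filter on low values and without Aloxe3 replicate 7 or 8. Hemopexin (Hpx), which binds free heme and is often named beside haptoglobin, was at 3754 ± 69 RPKM with β-gal and 3859 ± 171 with Aloxe3. Its log2 fold change of 0.04 ± 0.053 (95% interval -0.08 to 0.16) did not pass the test. The ratio of Hp to Hpx within a library was 0.220 ± 0.0050 with β-gal and 0.305 ± 0.0048 with Aloxe3 (SD, n = 3), without overlap.

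Lrg1 encodes leucine-rich alpha-2-glycoprotein 1, a secreted protein that modifies TGF-β signaling in vessels. It is on chromosome 17, minus strand, at 56119678 to 56122001. The β-gal libraries were at 26.8, 27.2 and 28.0 RPKM and the Aloxe3 libraries at 41.5, 39.7 and 43.4 RPKM. The groups lay far apart relative to their ranges. The means differed 1.52-fold, a log2 fold change of 0.58 ± 0.042 (95% interval 0.49 to 0.68), from 1118 to 1631 reads per library. Lrg1 remained past the threshold in 13 of 13 alternative analyses.

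Crp encodes C-reactive protein, a pentraxin that binds phosphocholine on microbes and damaged cells. It is on chromosome 1, plus strand, at 172698055 to 172833031. Its level was 3.07, 3.12 and 2.97 RPKM with β-gal and 5.56, 5.37 and 4.46 RPKM with Aloxe3. Aloxe3 replicate 9 was the lowest of its group yet above every β-gal library. The means differed 1.68-fold, and the log2 fold change was 0.59 ± 0.073 (95% interval 0.42 to 0.76), which understates the ratio because the pseudocount of 1 RPKM is large beside a level near 3. Only 149 to 277 reads per library lay behind these values, and the call held in 6 of 12 alternative analyses. Serum amyloid P (Apcs), the other short pentraxin, lies on the same chromosome at 172893961 to 172895041. It was at 3.12, 3.39 and 4.40 RPKM with β-gal and at 5.34, 5.52 and 5.0 RPKM with Aloxe3, a log2 fold change of 0.45 ± 0.097 that did not pass the test (adjusted p = 0.153) but did without β-gal replicate 3 (0.56, adjusted p = 0.0457, limma). The ratio of Crp to Apcs overlapped between the groups, at 0.859 ± 0.16 with β-gal and 0.968 ± 0.075 with Aloxe3.

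The serum amyloid A genes encode small apolipoproteins of HDL that are hallmarks of the acute phase in mice. Saa1, Saa2 and Saa3 lie in a cluster on chromosome 7, with Saa4 between Saa3 and Saa1. Saa1 (46740497 to 46742980, minus strand) was at 297, 368 and 344 RPKM with β-gal and 333, 340 and 342 RPKM with Aloxe3. All 3 Aloxe3 libraries fell within the β-gal range. Its log2 fold change was 0.01 ± 0.073 (95% interval -0.16 to 0.18). Saa2 (46751790 to 46754313, plus strand) was at 118, 132 and 124 RPKM with β-gal and 108, 121 and 118 RPKM with Aloxe3. It alone of the 10 genes had a negative log2 fold change, -0.10 ± 0.057, with an interval from -0.24 to 0.03 and overlapping groups. Saa3, the form made by macrophages and other cells outside the liver as well, lies at 46711998 to 46715700 on the minus strand. Its β-gal libraries were at 168, 272 and 227 RPKM and its Aloxe3 libraries at 214, 253 and 213 RPKM. The β-gal libraries alone spanned more than the Aloxe3 libraries did. The log2 fold change of Saa3 was 0.05 ± 0.16, with the widest interval of the 10 genes (-0.33 to 0.42). Without β-gal replicate 2 it was 0.21 ± 0.13.

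Saa4, which encodes the constitutive serum amyloid A and sits within the same cluster (46727998 to 46732603), had other values than its neighbours. It was at 5.44, 7.33 and 7.28 RPKM with β-gal and at 10.3, 11.4 and 10.4 RPKM with Aloxe3. Its groups did not overlap, and its log2 fold change of 0.61 ± 0.10 missed the threshold (adjusted p = 0.0657, limma). It passed when genes under a mean of 5 RPKM were left out and with voom on the derived reads. The ratio of Saa1 to Saa2 was 2.52, 2.79 and 2.77 with β-gal and 3.07, 2.82 and 2.89 with Aloxe3. These groups did not overlap, although 14.8% of the 50-base windows of the Saa1 transcript also occur in other genes, and such reads were left out of the counts as not unique.

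The orosomucoid genes encode alpha-1-acid glycoproteins, plasma carriers of basic and neutral drugs. Orm1 (chromosome 4, 63344560 to 63348163, plus strand) was at 269, 325 and 319 RPKM with β-gal and 313, 313 and 334 RPKM with Aloxe3. The groups overlapped, with β-gal replicate 1 below the other 5 libraries. Its log2 fold change was 0.08 ± 0.075 (95% interval -0.10 to 0.25). Orm2 (63362449 to 63365878, plus strand) was at 70.5, 82.4 and 78.5 RPKM with β-gal and 78.6, 83.1 and 96.8 RPKM with Aloxe3. Aloxe3 replicate 9 was the highest and β-gal replicate 1 the lowest. The log2 fold change of 0.16 ± 0.085 had an interval from -0.04 to 0.35. Orm3, the gene between them, was at 2.45 ± 0.46 RPKM with β-gal and 2.99 ± 0.26 with Aloxe3, and did not pass the test (limma, adjusted p = 0.421). Its groups did not overlap, with 2.79 RPKM as the highest β-gal and 2.84 as the lowest Aloxe3 value. The ratio of Orm1 to Orm2 was 3.94 ± 0.13 with β-gal and 3.73 ± 0.26 with Aloxe3 and overlapped.

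Itih4 encodes a heavy chain of the inter-alpha-trypsin inhibitor family (chromosome 14, 30886476 to 30902353, plus strand). It was at 62.4, 64.8 and 64.3 RPKM with β-gal and 64.8, 66.2 and 67.0 RPKM with Aloxe3. The groups were separate by less than 0.1 RPKM. The log2 fold change was 0.05 ± 0.034, with the narrowest interval among the 10 genes (-0.03 to 0.13). Lcn2 encodes lipocalin 2, which binds bacterial iron carriers (chromosome 2, 32384633 to 32388252, minus strand). It was at 233, 307 and 268 RPKM with β-gal and 259, 301 and 262 RPKM with Aloxe3. All Aloxe3 libraries fell within the β-gal range. Its log2 fold change was 0.03 ± 0.10 (95% interval -0.21 to 0.27).

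**Figure D2:**
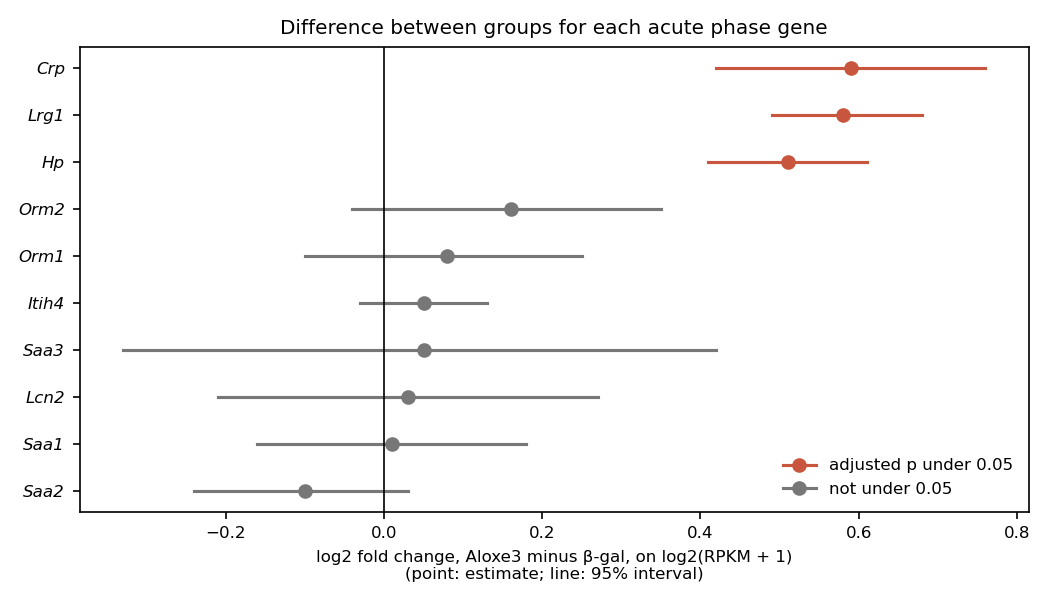
Log2 fold change (Aloxe3 minus β-gal, on log2(RPKM + 1)) of each gene with its 95% interval from limma, red where the adjusted p across all genes was under 0.05. The intervals of Hp, Lrg1 and Crp start at 0.41, 0.49 and 0.42, and those of the other 7 genes include 0.

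The 10 genes together took 0.607, 0.716 and 0.681% of the summed RPKM of all listed genes in the β-gal libraries and 0.782, 0.809 and 0.767% in the Aloxe3 libraries. The groups did not overlap in this share. Hp alone went from 0.245% ± 0.0071 to 0.349% ± 0.014 (SD, n = 3). The 7 genes that did not pass took 0.414% ± 0.049 with β-gal and 0.423% ± 0.017 with Aloxe3, with overlap. The ratio of Hp to Saa1 was 2.68, 2.30 and 2.42 with β-gal and 3.62, 3.48 and 3.32 with Aloxe3. Every Aloxe3 library thus held more haptoglobin mRNA relative to serum amyloid A1 mRNA than any β-gal library.

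Of the 7 genes that did not pass, 6 varied more between the β-gal libraries than Hp, Lrg1 and Crp did. Passing itself depends on a small spread within the groups, so this contrast was partly set by the split and is a description only. The coefficient of variation over the 3 β-gal libraries was 23.5% for Saa3, 13.7% for Lcn2, 10.7% for Saa1 and 10.2% for Orm1. It was 7.81% for Orm2, 5.51% for Saa2 and 1.99% for Itih4, against 3.10% for Hp, 2.59% for Crp and 2.12% for Lrg1. Over the Aloxe3 libraries this order did not hold, with 11.5% for Crp and 4.45% for Lrg1 against 1.46% for Saa1, 1.68% for Itih4 and 3.92% for Orm1. Over the 1066 genes with a β-gal mean of at least 50 RPKM the median was 2.80%, and Saa3 exceeded 99.4% of these genes. The β-gal coefficient of variation was 14.3 times that of counting alone for Saa3, 19.2 times for Lcn2 and 5.78 times for Hp. For Lrg1 (0.722 times) and Crp (0.331 times) it was below counting error, so their β-gal libraries lay closer together than their reads can resolve. Of the 10 genes 8, Hp and the 7 that did not pass, were lowest in β-gal replicate 1 and highest in β-gal replicate 2, a pattern found in 19.7% of all genes tested and seen only after their values were known. In β-gal replicate 1 the summed level of 12 Kupffer cell and macrophage markers was 170 RPKM, against 163 and 164 in the other β-gal libraries and 144 to 158 with Aloxe3. Cd68 made up most of the sum, and 8 of these markers were highest in that library among the β-gal libraries, as were 7 of 7 endothelial markers (30.1 RPKM in sum, against 26.0 and 27.2). The endothelial sum was 30.0 RPKM in Aloxe3 replicate 7, and 25.9 and 27.4 in the other Aloxe3 libraries. Their part in the spread of the acute phase genes was not tested. Without β-gal replicate 1 the log2 fold changes of Saa1, Saa3, Orm1 and Lcn2 became -0.07, -0.14, -0.01 and -0.07, none past the threshold.

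**Figure D3:**
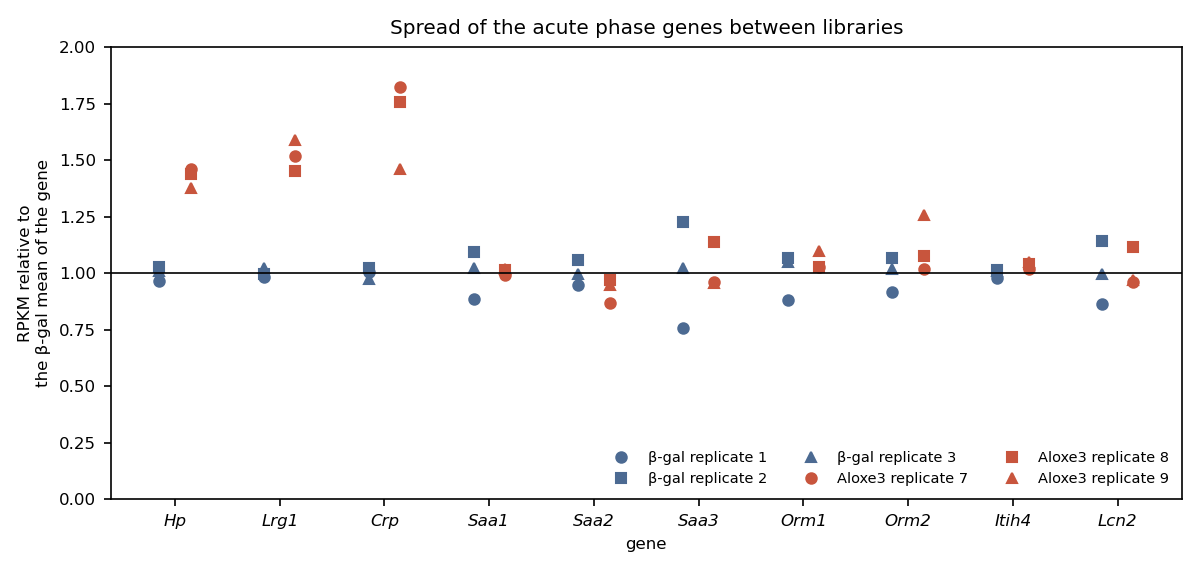
RPKM in each library divided by the gene's β-gal mean (linear axis from 0; the line marks 1), with blue for β-gal and red for Aloxe3 and marker shapes for replicates. Saa3, Lcn2, Saa1 and Orm1 have a low β-gal replicate 1 and wide β-gal groups, and Hp, Lrg1 and Crp have narrow β-gal groups with all red points above them.

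The rest of the response was described with 3 lists written with earlier results of these data known. Of 36 other positive acute phase genes, 34 passed the filter, and 4 of these rose with Aloxe3 and 0 fell (limma, adjusted over all genes, against 0.355% of all genes rising). The median log2 fold change of the list was 0.04. The genes that rose were the fibrinogen chains Fga, Fgb and Fgg, which form the clot, and Steap4, a metalloreductase. Fga went from 28.8 ± 3.2 to 57.6 ± 3.8 RPKM (log2 fold change 0.98 ± 0.082, adjusted p = 0.00781). Fgb went from 305 ± 11 to 476 ± 23 RPKM (0.64 ± 0.048, adjusted p = 0.00507) and Fgg from 31.8 ± 1.3 to 59.2 ± 6.5 RPKM (0.87 ± 0.077, adjusted p = 0.00781). Steap4 went from 31.6 ± 1.6 to 40.3 ± 1.9 RPKM (0.34 ± 0.050, adjusted p = 0.0498). All 3 fibrinogen genes lost their calls without a filter on low values, Fga also without Aloxe3 replicate 7, and Fgg without it or without β-gal replicate 1. Steap4 passed in 4 of 13 alternative analyses and in 0 of the 6 that left out 1 library. Without the fibrinogen genes 1 of 31 genes rose. Saa4 and Apcs, described above, had the smallest adjusted p of those that did not pass. The complement gene C3 was at 558 ± 11 RPKM with β-gal and 627 ± 11 with Aloxe3 (0.17 ± 0.037, adjusted p = 0.168; it passed with voom), and Serpina3n at 27.0 ± 0.86 and 27.3 ± 1.5 RPKM (0.01 ± 0.048).

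Negative acute phase genes are those whose products fall during inflammation, in plasma or, as for the Cyp genes and Fabp1 of this list, within the liver. All 22 were tested, with 1 higher and 2 lower (against 0.0394% of all genes lower) and a median log2 fold change of -0.02. Ttr (transthyretin, a thyroid hormone and retinol carrier) fell from 119, 131 and 122 RPKM to 99.4, 101 and 101 RPKM, a log2 fold change of -0.30 ± 0.043 (adjusted p = 0.0448). Apoa2 (an apolipoprotein of HDL) fell from 280 ± 8.3 to 237 ± 0.21 RPKM (-0.24 ± 0.036, adjusted p = 0.0498). Serpina7 (thyroxine-binding globulin) rose from 10.5 ± 0.56 to 17.0 ± 1.8 RPKM (0.64 ± 0.075, adjusted p = 0.0226). Ttr and Apoa2 no longer passed in any of the 6 analyses that left out 1 library, and Serpina7 passed in 1 of them. Itih2, a relative of Itih4, had a log2 fold change of 0.23 ± 0.037 (adjusted p = 0.0657) and Ahsg (fetuin-A) of 0.21 ± 0.048 (adjusted p = 0.18). Both passed with voom on the derived reads, and Itih2 also with the filter at 5 RPKM.

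Of 44 genes of acute phase signalling (ligands, receptors, transcription factors and feedback inhibitors), 42 passed the filter and 0 passed the test in limma or in voom, while 7 had an unadjusted p under 0.05 (4 higher and 3 lower), as did 12.7% of all genes tested. Il6 did not pass the filter, at 0.11 to 0.37 RPKM with β-gal and 0.31 to 0.47 with Aloxe3. The smallest adjusted p belonged to the ligand Il1a, at 2.96 ± 0.045 RPKM with β-gal and 3.59 ± 0.056 with Aloxe3 (log2 fold change 0.21 ± 0.043, adjusted p = 0.126). It was followed by the feedback inhibitor Cish, at 4.29 ± 0.12 and 3.70 ± 0.034 RPKM (-0.17 ± 0.042, adjusted p = 0.214). Stat3 was at 24.9 ± 1.2 and 25.4 ± 1.3 RPKM (95% interval of the log2 fold change -0.09 to 0.15). Its feedback inhibitor Socs3 was at 4.14 ± 0.24 and 4.66 ± 0.51 RPKM (-0.03 to 0.31), Cebpb at 101 ± 1.2 and 108 ± 5.0 (-0.01 to 0.19) and Cebpd at 9.58 ± 1.1 and 10.5 ± 1.1 (-0.10 to 0.34). Changes of any size within these intervals remain compatible with the values, and mRNA levels do not show the activity of these proteins.

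**Figure D4:**
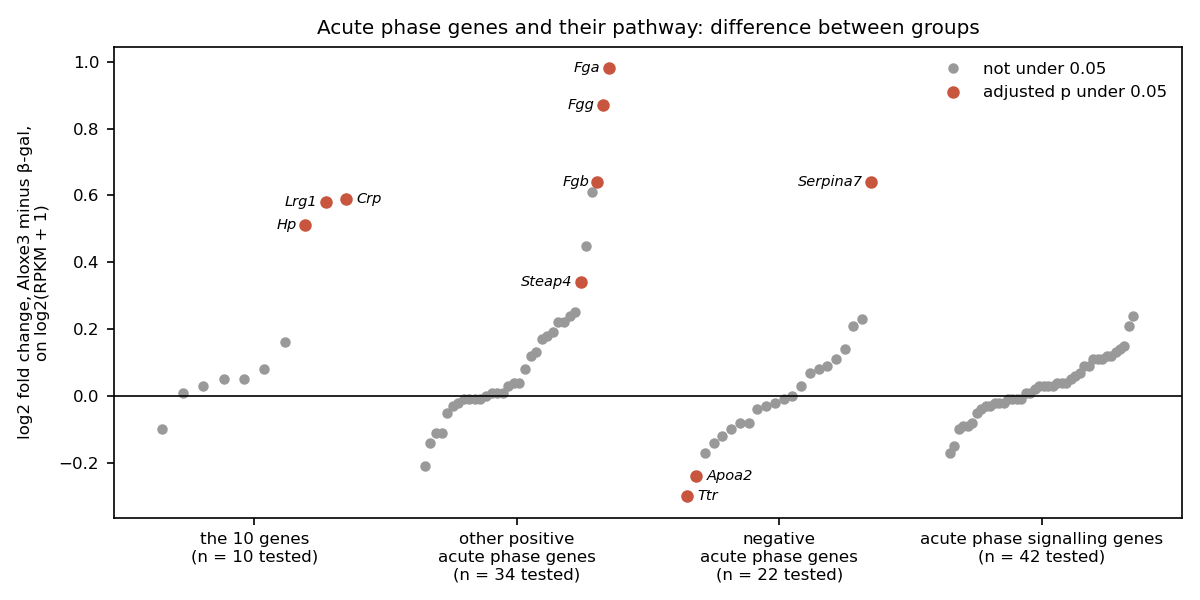
Log2 fold change (Aloxe3 minus β-gal, on log2(RPKM + 1)) of every tested gene in 4 lists, ordered within each list, in red and named where the adjusted p across all genes was under 0.05. In the positive list 4 of 34 genes rose, in the negative list 1 rose and 2 fell of 22, and in the signalling list 0 of 42 passed.

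The profile over the 6 libraries that Hp, Lrg1 and Crp had on average was compared with that of every other tested gene, as the root mean square distance between centred log2(RPKM + 1) values. The 3 genes themselves lay at 0.0299 (Hp), 0.0595 (Lrg1) and 0.0615 (Crp) from their mean. The nearest other genes were Cdo1 (cysteine dioxygenase, 0.0418), Fgb (0.0512), Depp1 (0.0587), the small nucleolar RNA Snord19 (0.071) and Mat1a (0.0765), which makes S-adenosylmethionine. All 5 are higher with Aloxe3 because the profile asked for it, and the group mean of Cdo1 went from 3.57 to 5.77 RPKM and that of Depp1 from 0.834 to 1.78 RPKM. As to position, 0 of 7 tested genes within 200 kb of Hp, 0 of 18 near Lrg1 and 0 of 4 near Crp passed the test in limma, where 0.394% of all genes passed. An unadjusted p under 0.05 was found for 1, 4 and 2 of them, and for 12.7% of all genes. Their median log2 fold changes were -0.05, 0.01 and 0.09.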

How the data were processed

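RNA of 6 libraries was sequenced as single reads of 50 bases in 1 run. The authors aligned reads to GRCm38.p2 with STAR 2.0.4b, counted unique, unambiguous reads per gene with featureCounts 1.4.5, and deposited RPKM values, whose computation is not given in the sources used here. These RPKM values were used unchanged. Library sizes and reads were derived from their whole-read steps (tolerance 0.01). For genes whose GENCODE M21 length gave no whole reads, the smallest length that did was used, so their reads are known up to a factor. Of 41388 identifiers 40340 matched GENCODE M21.

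Groups came from the sample labels. Values were tested as log2(RPKM + 1) for the 12693 genes whose mean reached 0.5 RPKM, by limma 3.58.1 (R 4.3.3; linear model per gene, moderated with a mean-variance trend), and p-values were adjusted over all of them (Benjamini-Hochberg, 0.05). The fit was tested on simulated data. At 3 against 3 an exact permutation test of 1 gene cannot go below 0.1, and none was run. The 10 genes and all gene lists were chosen with earlier results of these data known.

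Named were the 10 genes, Aloxe3, in each list the genes that passed and the 2 next in adjusted p, and the 5 nearest profiles. Other named genes (Hpx, C3, Serpina3n, Orm3, Il6, Stat3, Socs3, Cebpb, Cebpd, Cox7a1, Lox, Acsbg1 and cell type markers) were chosen after their values were seen. Alternatives were a pseudocount of 0.1, no filter, a filter at 5 RPKM, equal library medians, quantile normalization, eBayes without trend, voom on the derived reads, and each library left out in turn. Sequences came from RefSeq and GENCODE M21. Python 3.11.15 was used for tables.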

Additional observations from a re-analysis of the deposited data

How the results depend on the processing

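Aloxe3 passed in every alternative (log2 fold change 3.93 to 4.61), as did Lrg1 (0.55 to 0.62). Hp passed in 10 of 13 (0.49 to 0.53) and lost the call without a filter on low values, without Aloxe3 replicate 7 and without Aloxe3 replicate 8. Crp passed in 6 of the 12 it could be tested in (0.54 to 0.74), being under the filter at 5 RPKM, and of the 6 that left out a library only in that without Aloxe3 replicate 9. The other 7 genes passed in 0 of 13 alternatives each, by limma or voom. Saa1, Saa3 and Lcn2 changed sign in 2 alternatives each and Orm1 in 1, without passing. The number of the 10 genes that passed was 3, and 1 without a filter, and 1 to 3 with a library left out. Over all genes it was 50, against 7 without a filter, 173 with voom and 6 to 19 with a library left out. The fewest, 6, came without Aloxe3 replicate 7. For the positive list it was 4, against 0 without a filter, 7 with voom and 1 to 4 with a library left out. For the negative list it was 3, against 0 without a filter, 1 with quantile normalization, 1 for eBayes without trend, 5 with voom and 0 to 1 with a library left out. The signalling list gave 0 throughout. Without a filter more genes entered the fit and the adjustment, and leaving out a library left 2 against 3; for the other changes the cause was not tested. Rescaling and quantile normalization moved the median of all genes by -0.012 and -0.011. No paired analysis was possible because the groups share no replicate numbers. At 149 to 277 reads Crp was the gene of the 10 most limited by depth.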

Other observations

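Saa3, with the widest spread among the β-gal libraries, was matched to all tested genes by the distance of their centred profiles, a search chosen after its values were seen and with no test. Lcn2 was the third nearest of the 12693 genes at a root mean square distance of 0.0915 (log2), and the only acute phase gene among the nearest 8. The nearest was Gm14584, at 0.0753 and a β-gal mean of 0.716 RPKM. The other genes named below were picked from these 8. Cox7a1, a subunit isoform of cytochrome c oxidase, was at 1.53, 2.54 and 2.32 RPKM with β-gal and 2.05, 2.26 and 1.77 with Aloxe3 (distance 0.091). Lox, the collagen crosslinking enzyme lysyl oxidase, was at 2.78, 3.96 and 3.70 RPKM with β-gal and 3.14, 3.95 and 3.27 with Aloxe3 (distance 0.0927). Acsbg1, an acyl-CoA synthetase, was at 10.1, 13.7 and 12.1 RPKM and at 12.5, 13.2 and 10.6 (distance 0.108). Each was lowest in β-gal replicate 1 and highest in β-gal replicate 2 of its group, and none passed the test between the groups. Both traits were set by the match, because Saa3 has that pattern and a log2 fold change of 0.05. Saa1, Orm1 and Saa2 were not among the nearest 8.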
